A study of Danio rerio with 3 samples.

Results

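The genes described here encode heat shock proteins, J-domain proteins and heat shock factors of adult zebrafish intestine, outside 8 endoplasmic reticulum chaperones. They were chosen by symbol: all genes whose name starts with hsp and then a digit or 1 of the letters a, b, d, e and h, with dnaja, dnajb or dnajc and a digit, or with hsf and a digit. Of 32519 gene identifiers 88 had such a name, and 8 of these (hspa5, hsp90b1, hspa13, dnajb9a, dnajb9b, dnajb11, dnajc3a and dnajc3b) were set aside as endoplasmic reticulum chaperones, which left 80. By role these are 5 heat shock factors or factor-binding genes, 3 HSP90 genes, 13 genes of the HSP70 and HSP110 families, 9 small heat shock proteins, the 2 mitochondrial chaperonin genes, 2 further genes matched by name (hspbp1 and hspbap1), and 5 DNAJA, 11 DNAJB and 30 DNAJC genes. The name "cytosolic" does not cover all of them. At least 12 of the 80 encode proteins known or annotated as mitochondrial. At least 9 encode proteins of the endoplasmic reticulum or of membranes. These counts come from fixed lists and are lower bounds.

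Adult zebrafish of both banana groups ate pellets that were 50% Tetramin, a commercial fish feed, and 50% fruit pulp, from the orange-fleshed Fe'i banana in one group and the pale Cavendish dessert banana in the other, while the control group ate Tetramin alone. Feed was given at 4% of body weight a day for 8 weeks, and the intestine was taken on day 56 after 24 hours without food. The labels give the fish as 6 to 9 months old, and do not give their strain, their sex, the number of fish behind each library or the stretch of gut taken. Poly(A) RNA of each diet was sequenced as 1 library, so no difference between diets has a replicate check and no p-value is given.

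Heat shock proteins bind unfolded segments of other proteins and keep them from clumping until they fold, are refolded or are degraded. HSP70 and HSP90 proteins do so with ATP, J-domain proteins deliver substrates to HSP70 and start its ATPase, HSP110 proteins and other exchange factors reset it, and small heat shock proteins hold unfolded proteins without ATP. Some of these genes are on in every cell, while others are switched on by heat shock factor 1 when unfolded proteins accumulate. The gut epithelium is renewed throughout life and is in contact with food and microbes.

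Levels are the deposited FPKM (fragment counts set against transcript length and library size) divided by 1 scaling factor per library, and called scaled FPKM. The value after ± is the half-width of the deposited 95% interval on the same scale, which covers counting and read assignment within a library and not the spread between fish. Ratios between libraries were taken on the log2(scaled FPKM + 1) scale, where low genes appear to differ less than they do, with a counting SE from the same intervals. A gene was called higher or lower where the log2 ratio was at least 1 in size (2-fold), the higher library had at least 1 FPKM and the intervals did not overlap. A gene counts as measured if any of the libraries had it at 1 FPKM or above, which holds for 63 of the 80 chaperone genes and 14061 of all genes.

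The libraries also differed in RNA of other tissues. Summed over fixed marker lists, the 20 genes for digestive enzymes and other exocrine pancreas products held 5.26% of the Fe'i library's FPKM, 14.4% of the Cavendish library's and 6.15% of the control library's. Of 15 measured smooth muscle markers 11 were called higher in the Cavendish than in the control library (5.66% of all measured genes). For Fe'i over control 0 of these 15 and all 17 liver markers were called higher (4.93% of all measured genes). The enterocyte list held 1.96%, 1.78% and 3.45% of the FPKM of the Fe'i, Cavendish and control libraries, and all 10 of its genes were present in every library, as fits the labelled tissue. In such bulk RNA, fewer cells of a type and less RNA per cell cannot be told apart. Counting precision was alike for chaperones and other genes: the median measured chaperone gene had 112 effective fragments in the Fe'i library, 192 in the Cavendish library and 149 in the control library, against 113, 177 and 144 for the median of all measured genes.

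The bulk of the chaperone transcripts was much alike under the 3 diets. Together the 80 genes took 0.318% of all FPKM in the Fe'i library, 0.306% in the Cavendish library and 0.344% in the control library. As scaled FPKM they summed to 3114, 3268 and 3045 in the Fe'i, Cavendish and control libraries. The share was thus highest in the control library, and the sum in the Cavendish library. Of the 63 measured genes, 39 (61.9%) stayed within 1.5-fold in all 3 comparisons, close to the 63.7% of all measured genes. Calls were few and most sat at low levels. Of the 63, 7 (11.1%) were called in at least 1 comparison, against 14.5% of all measured genes. Small heat shock proteins made up 5 of the 7, and the HSP90 genes hsp90aa1.1 and hsp90aa1.2 the rest. The highest level among them was 17.5 scaled FPKM, for hsp90aa1.2 in the Cavendish library. None of the 38 measured J-domain genes, the 10 measured HSP70 and HSP110 genes, the chaperonins or the factors was called under any pair of diets.

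In the Fe'i library set against the control library, 1 of 63 measured chaperone genes was called higher (hspb2) and 0 were called lower, where 4.93% and 1.79% of all measured genes were called. Between the Cavendish and control libraries 4 were called higher (hspb1, hspb9, hspb11 and hsp90aa1.1) and 0 lower, where the shares over all measured genes were 5.66% and 1.65%. Between the Fe'i and Cavendish libraries 2 were called higher (hspb2 and hspb15) and 4 lower (hspb1, hspb9, hspb11 and hsp90aa1.2), where the shares over all genes were 4.22% and 4.49%. As shares of the 63 genes these 2-fold counts lie near or below that background. With the threshold lowered to 1.5-fold, 4 chaperone genes were higher and 2 lower for Fe'i over control (9.41% and 5.14% of all measured genes), 9 higher and 1 lower for Cavendish over control (12.2% and 5.32%), and 5 higher and 11 lower for Fe'i over Cavendish (8.94% and 9.99%). The 11 lower for Fe'i over Cavendish are a larger share of the 63 genes than the 9.99% over all measured genes. Among these 11, hsp70.1, hsp70.2, hspb9 and hspb11 reached 1 FPKM in the Cavendish library alone. They were counted only through the library where they were high, so this share says little about the group. The median log2 ratio of the measured chaperone genes was -0.01 for Fe'i over control, -0.02 for Cavendish over control and -0.05 for Fe'i over Cavendish, beside 0.01, 0.02 and -0.01 over all measured genes. The first 2 of these comparisons share the control library.

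**Figure D1:**
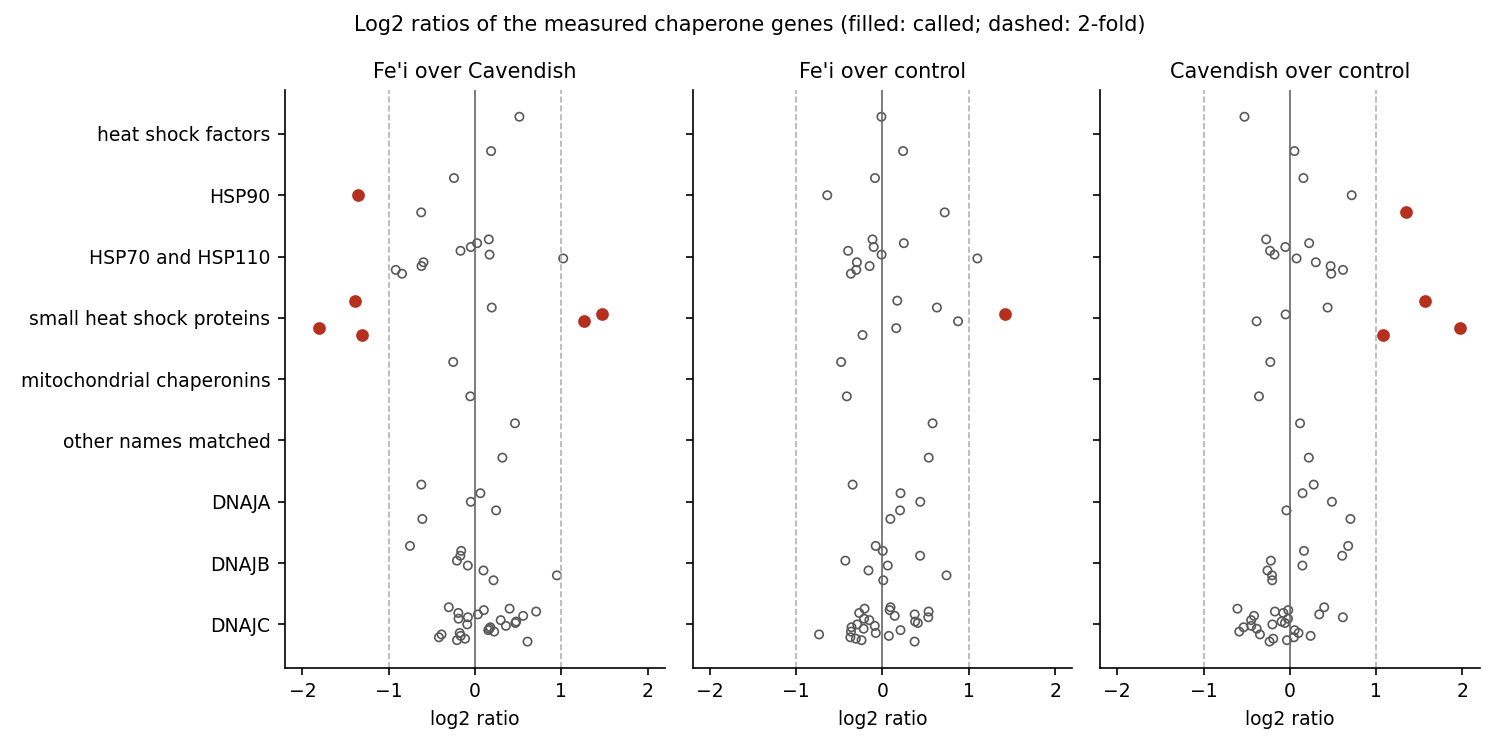
Log2 ratios of the 63 measured chaperone genes by role group, for Fe'i over Cavendish (left), Fe'i over control (middle) and Cavendish over control (right). Each circle is a gene, filled circles are called genes, and dashed lines mark 2-fold. The open circle past the lines is hspa12a; the filled circles lie in the small heat shock protein and HSP90 rows, while the J-domain rows stay inside the dashed lines.

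Of the heat shock factors, the transcription factors that switch these genes on, only hsf1 and hsf2 reached 1 FPKM. The transcript of hsf1, the main activator of the heat shock response, stood at 1.13 ± 0.361 in the Fe'i library, 0.868 ± 0.285 in the Cavendish library and 0.8005 ± 0.264 in the control library. The 3 intervals overlap. hsf2, a related factor, was at 4.13 ± 0.858 in the Fe'i library, 2.59 ± 0.542 in the Cavendish library and 4.17 ± 0.739 in the control library, so that it was lower in the Cavendish library than in the other two, with a log2 ratio to the control library of -0.53 (counting SE 0.15), short of the 2-fold threshold. hsf4 was listed at 0 in all 3 libraries, and hsf5 and the factor-binding gene hsf2bp were under 1 FPKM in each. The level of hsf1 RNA does not report its activity, which is set largely at the protein level.

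A pair of constitutive chaperones made up most of the pool. hspa8 (ENSDARG00000068992, chromosome 10, 29849497 to 29858018 in GRCz11), the HSP70 protein that every cell uses, stood at 1489 ± 60.2 in the Fe'i library, 1465 ± 59 in the Cavendish library and 1254 ± 50.3 in the control library. The Fe'i and Cavendish intervals overlap and lie above that of the control library, with log2 ratios to the control of 0.25 for Fe'i and 0.22 for Cavendish, of which the second was -0.04 on the TPM scale. hsp90ab1 (chromosome 20, 51197758 to 51213829), the constitutive HSP90, was at 758 ± 32.3 in the Fe'i library, 898 ± 37.7 in the Cavendish library and 805 ± 33.96 in the control library. Its Cavendish interval lies above the other two, which overlap, but the log2 ratio of Cavendish over control, 0.16, was -0.11 on the TPM scale. With FPKM counted per length of transcript, these 2 genes held 72.2% of the summed level of the 80 genes in the Fe'i library, 72.3% in the Cavendish library and 67.6% in the control library, and hspe1 added 6.61%, 7.51% and 9.43%. Only 9 of the 80 genes averaged 30 scaled FPKM or more over the 3 libraries.

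**Figure D2:**
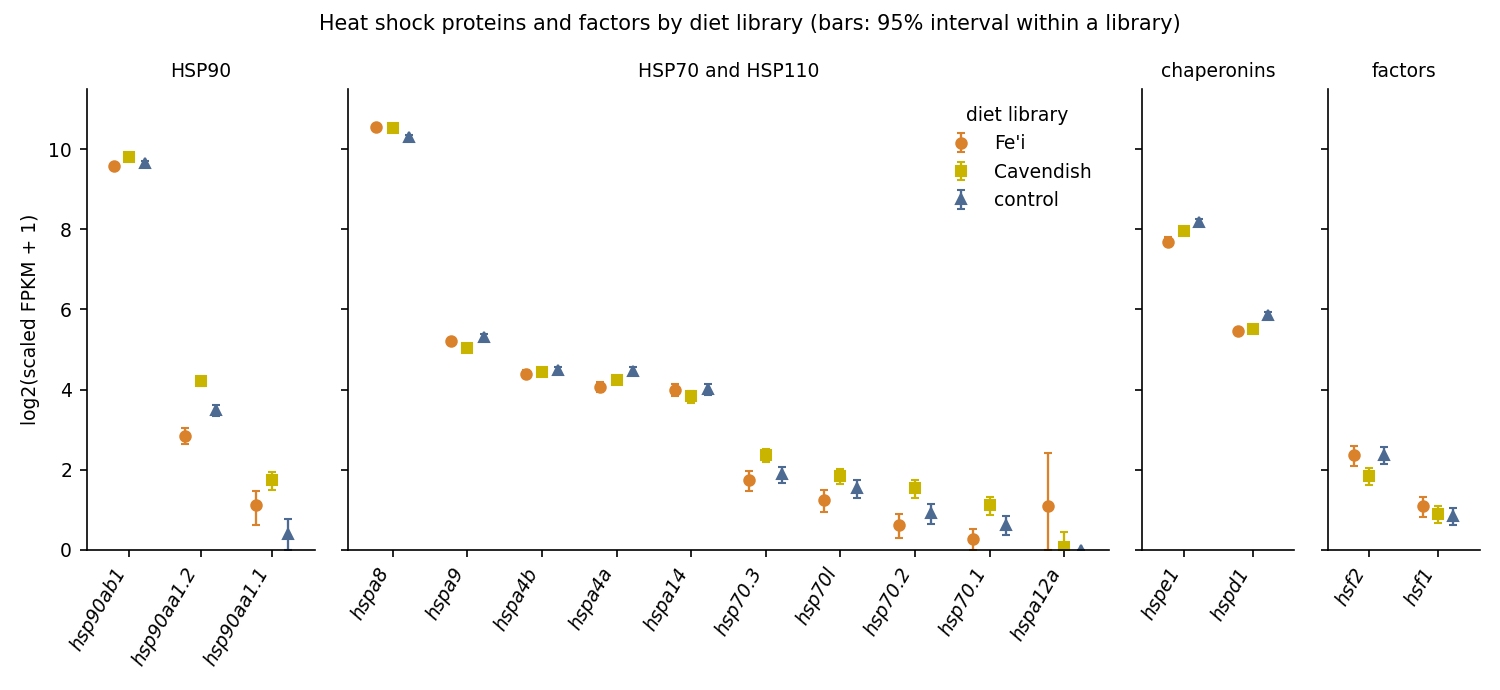
Levels of the measured HSP90, HSP70 and HSP110, chaperonin and heat shock factor genes as log2(scaled FPKM + 1) in the Fe'i (circles), Cavendish (squares) and control (triangles) libraries, with bars for the 95% interval within a library. hspa8, hsp90ab1 and, below them, hspe1 stand above the rest, while hsp90aa1.2 and, at lower levels, the hsp70 genes are highest in the Cavendish library.

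The stress-inducible HSP90 gene differed more than its constitutive relative. hsp90aa1.2 (ENSDARG00000024746, chromosome 20, 53967350 to 53981626) was at 6.23 ± 0.944 in the Fe'i library, 17.5 ± 1.37 in the Cavendish library and 10.3 ± 1.06 in the control library. No 2 of these intervals overlap, with the Cavendish library highest and the Fe'i library lowest. It was 2.56-fold lower in the Fe'i than in the Cavendish library (log2 ratio -1.36, counting SE 0.11) and was called there. Its log2 ratios to the control library, -0.64 for Fe'i and 0.72 for Cavendish, were short of the threshold. Set against hsp90ab1 in the same library, which removes the scaling, there were 8.22 units of hsp90aa1.2 per 1000 of hsp90ab1 in the Fe'i library, 19.5 in the Cavendish library and 12.7 in the control library.

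Its tandem neighbour hsp90aa1.1 is known in zebrafish for folding myosin in skeletal muscle. It was at 1.16 ± 0.617 in the Fe'i library, 2.33 ± 0.529 in the Cavendish library and 0.311 ± 0.3999 in the control library, and was called higher in the Cavendish than in the control library (log2 ratio 1.34, counting SE 0.25). The control value rests on 2.4 effective fragments and the Cavendish value on 77.6. Skeletal muscle markers shared its Cavendish maximum but not its order below that: 28 listed genes summed to 10.6 scaled FPKM in the Fe'i library, 69.1 in the Cavendish library and 49.3 in the control library, and 3 of 13 measured markers were called higher in the Cavendish than in the control library (5.66% of all measured genes). For Fe'i over control 11 of the 13 were called lower (1.79% of all measured genes), whereas hsp90aa1.1 had a log2 ratio of 0.72 with overlapping intervals. Of the 28 listed genes 3, 13 and 11 reached 1 FPKM in the Fe'i, Cavendish and control libraries, and 7, 5 and 5 were at 0. Those at 0 included the parvalbumin pvalb2 in all 3 libraries. The fast myosin genes myhz1.1 and myhz1.2 were at 0 in the Cavendish and control libraries. The myosin chaperone unc45b, which works with this HSP90, was at 0.115 ± 0.284 in the Fe'i library, 0.342 ± 0.366 in the Cavendish library and 0.0853 ± 0.211 in the control library. The part of muscle RNA in the result was not tested.

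The 4 heat-inducible hsp70 genes ran in the same order as hsp90aa1.2, at low levels. hsp70.3 was at 2.34 ± 0.561 in the Fe'i library, 4.14 ± 0.594 in the Cavendish library and 2.7 ± 0.511 in the control library. hsp70l, the copy on chromosome 8 long used as a heat shock reporter in zebrafish, was at 1.37 ± 0.433 in the Fe'i library, 2.58 ± 0.47 in the Cavendish library and 1.91 ± 0.437 in the control library. hsp70.2 stood at 0.534 ± 0.312 in the Fe'i library, 1.9 ± 0.425 in the Cavendish library and 0.892 ± 0.326 in the control library, and hsp70.1 at 0.201 ± 0.23 in the Fe'i library, 1.16 ± 0.336 in the Cavendish library and 0.548 ± 0.263 in the control library. Each of the 4 was highest in the Cavendish library and lowest in the Fe'i library, and for each the Fe'i and Cavendish intervals did not overlap. The Cavendish interval also stood clear of the control interval for the 3 copies on chromosome 3, whereas for hsp70l those intervals overlap. The Fe'i and control intervals overlap for all 4 genes, unlike those of hsp90aa1.2. This order of libraries was the same with the deposited FPKM and both TPM scalings. Of all 14061 measured genes, 5055 were highest in the Cavendish library and 4609 lowest in the Fe'i library. How many of them have separate intervals was not counted. hsp70.1 and hsp70.2 reached 1 FPKM in the Cavendish library alone, so the shared order says little about the group.

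Their log2 ratios for Fe'i over Cavendish ran from -0.92 to -0.60, none past 2-fold on the log2(scaled FPKM + 1) scale. The 1 added to each level shrinks ratios at levels this low. Without it the Fe'i level was 0.174 of the Cavendish level for hsp70.1 and 0.281 for hsp70.2, both past 2-fold. For hsp70.3 and hsp70l it was 0.566 and 0.53. The Fe'i values of hsp70.1 and hsp70.2 rest on 3.1 and 11.7 effective fragments. At the 1.5-fold threshold all 4 were called lower in the Fe'i library, and so make up 4 of the 11 chaperone genes lower there. Against the control library the ratios ran from -0.37 to -0.15 for Fe'i and from 0.30 to 0.62 for Cavendish, and at 1.5-fold hsp70.2 alone of the 4 was called, higher in the Cavendish library. Summed, the 4 genes came to 4.44 scaled FPKM in the Fe'i library, 9.78 in the Cavendish library and 6.05 in the control library, or 2.98, 6.67 and 4.83 units per 1000 of hspa8. The 3 copies on chromosome 3 are closely similar, so reads may have been split among them and their single values are uncertain.

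Of the other HSP70 and HSP110 genes, hspa9, hspa14, hspa4a and hspa4b stayed within 1.5-fold in every comparison. hspa9, the mitochondrial HSP70, was at 35.9 ± 2.2 in the Fe'i library, 32.03 ± 1.91 in the Cavendish library and 38.9 ± 2.25 in the control library. hspa4b and hspa4a, exchange factors of the HSP110 kind, had log2 ratios between -0.40 and -0.05 in the 3 comparisons. At 19.96, 20.7 and 21.5 scaled FPKM in the Fe'i, Cavendish and control libraries, hspa4b varied least of the family. hspa14, an HSP70 relative that in human cells works at the ribosome, was at 14.97 ± 1.73 in the Fe'i library, 13.2 ± 1.41 in the Cavendish library and 15.1 ± 1.54 in the control library. hspa12a passed the 1 FPKM minimum in the Fe'i library alone, at 1.14 ± 3.23, an interval that spans 0. hsph1, the inducible HSP110, stayed under 1 FPKM in each library, as did hspa4l and hspa12b. Of the genes matched by name only, hspbp1, which releases nucleotide from HSP70, was at 5.96 ± 1.28 in the Fe'i library, 4.05 ± 0.697 in the Cavendish library and 3.65 ± 0.733 in the control library, and hspbap1, a protein that binds HSP27 in mammals, at 3.16 ± 0.82 in the Fe'i library, 2.34 ± 0.563 in the Cavendish library and 1.87 ± 0.545 in the control library. Both were highest in the Fe'i library, with log2 ratios of 0.58 and 0.54 to the control. The Fe'i interval of hspbp1 overlaps that of the Cavendish library but not that of the control library. For hspbap1 the Fe'i interval overlaps both others. The hspbap1 span also overlaps that of dirc2 over 505 bases. dirc2 was at 21.2, 9.94 and 11.8 scaled FPKM in the Fe'i, Cavendish and control libraries.

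Small heat shock proteins were the role group with the widest spread between diets, most of it at low levels. Of 9 genes 6 were measured, and 5 of the 6 were called in at least 1 comparison, beside 14.5% of all measured genes. Only 2 of the 6 reached 1 FPKM in every library, against 11413 of the 14061 measured genes. Of the called genes, hspb9 and hspb11 reached it in the Cavendish library alone, and hspb2 and hspb15 in the Fe'i library alone. They were thus counted only through the library where they were high, so the share called says little about the group. hspb1 (ENSDARG00000041065, chromosome 5, 3568016 to 3584815), the zebrafish HSP27 and the most abundant of them, was at 4.48 ± 1.44 in the Fe'i library, 12.6 ± 1.82 in the Cavendish library and 5.43 ± 1.32 in the control library. The Cavendish interval lies above both others, which overlap. The log2 ratio was 1.08 for Cavendish over control (counting SE 0.18) and -1.31 for Fe'i over Cavendish (counting SE 0.21), both called. The first of these calls was lost under the deposited FPKM, under TPM and under TPM without pancreas and mitochondrial genes, where the ratio was 0.96, 0.84 and 0.98.

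hspb11 (ENSDARG00000002204, chromosome 21, 20383837 to 20384878; the gene name table used here calls this identifier hspb9l) had the greatest log2 ratio of all 63 genes. It was at 0.262 ± 0.302 in the Fe'i library, 3.42 ± 0.892 in the Cavendish library and 0.129 ± 0.183 in the control library, which is a Cavendish value of 58.9 effective fragments against 3.0 in the Fe'i and 2.0 in the control library. The log2 ratios were 1.97 for Cavendish over control (counting SE 0.19) and -1.81 for Fe'i over Cavendish (counting SE 0.23). hspb9, whose mammalian relative is known from the testis, was at 0.126 ± 0.361 in the Fe'i library and 1.96 ± 0.833 in the Cavendish library, and it was listed at 0 in the control library. Its span is overlapped in full by another annotated gene, CABZ01012957.1, listed at 0 in all 3 libraries.

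A second pair of small heat shock proteins was higher in the Fe'i library. hspb2, a muscle form in mammals, was at 2.67 ± 1.42 in the Fe'i library, 0.325 ± 0.48 in the Cavendish library and 0.371 ± 0.552 in the control library, and was called higher in the Fe'i library than in both others (log2 ratio 1.42 to control and 1.47 to Cavendish, counting SE 0.40 and 0.38). Only 14.2 effective fragments stand behind the Fe'i value and 1.8 and 1.8 behind the other two. hspb15 was at 2.23 ± 0.741 in the Fe'i library, 0.348 ± 0.232 in the Cavendish library and 0.76 ± 0.369 in the control library, called for Fe'i over Cavendish at a log2 ratio of 1.26. hspb8, which in human cells acts with BAG3 in the disposal of damaged proteins, was at 2.27 ± 0.572 in the Fe'i library, 1.86 ± 0.398 in the Cavendish library and 1.11 ± 0.387 in the control library. It was higher in both banana libraries at log2 ratios of 0.63 and 0.44 to the control for Fe'i and Cavendish, and was not called. Its Fe'i interval lies above that of the control library, and its Cavendish interval overlaps both. hspb3, hspb6 and hspb7 were under 1 FPKM in each library.

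**Figure D3:**
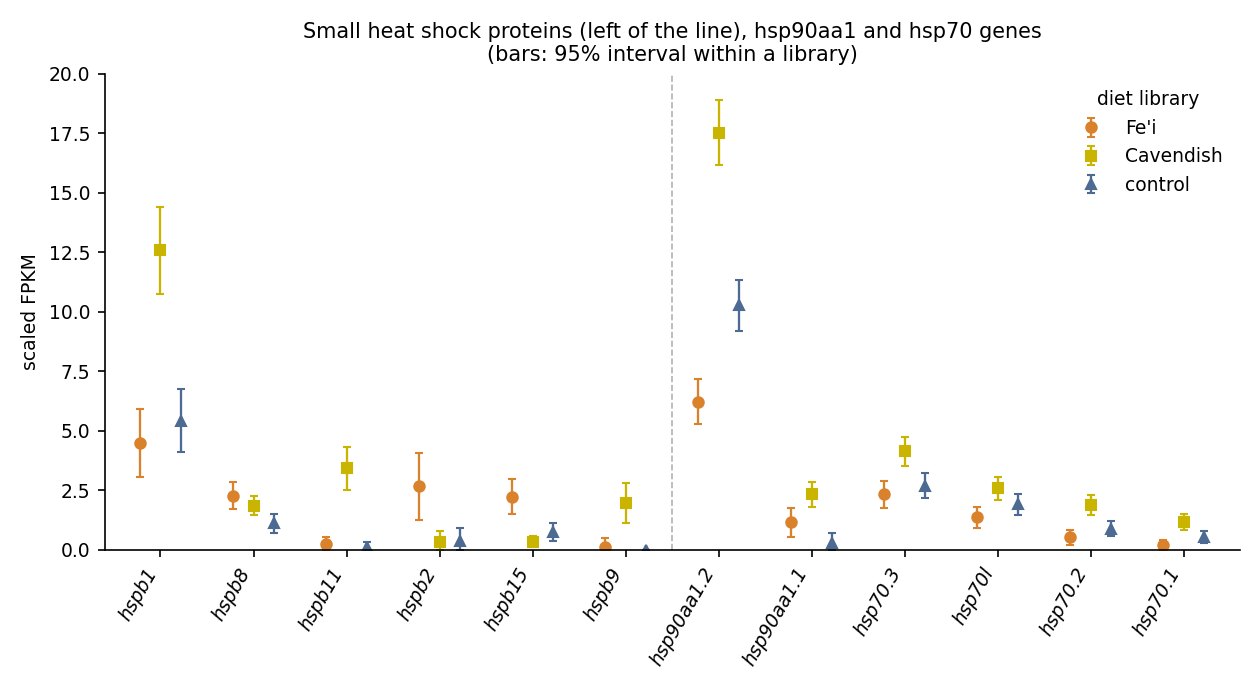
Scaled FPKM of the measured small heat shock proteins (left of the dashed line) and of the hsp90aa1 and hsp70 genes (right) in the Fe'i, Cavendish and control libraries, with bars for the 95% interval within a library. hspb1, hspb11, hspb9, hsp90aa1.2 and the 4 hsp70 genes are highest in the Cavendish library, whereas hspb2 and hspb15 are highest in the Fe'i library.

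Smooth muscle genes were also high in the Cavendish library, beside hspb1, hspb9, hspb11, hsp90aa1.1 and hsp90aa1.2. The 17 smooth muscle genes listed summed to 653 scaled FPKM in the Fe'i library, 1687 in the Cavendish library and 538 in the control library, with all 15 measured ones highest in the Cavendish library and synpo2la at 0 in the Cavendish and control libraries. acta2, the actin of smooth muscle, was at 210.5 ± 9.96 in the Fe'i library, 521 ± 19.1 in the Cavendish library and 160.3 ± 7.58 in the control library. Of 20 measured immediate early genes, which answer handling and many other stimuli within minutes, 15 were highest in the Cavendish library. Of the 20, 2 were called higher there than in the control library (5.66% of all measured genes). For Fe'i over control 1 was called higher (4.93% of all measured genes). The list summed to 329.6, 380.2 and 319.6 scaled FPKM in the Fe'i, Cavendish and control libraries. As a share of all FPKM it held 0.0337%, 0.0356% and 0.0361%, highest in the control library. Beside hspb2 and hspb15, ovary and germ cell markers summed to 91.3 scaled FPKM in the Fe'i library, 6.67 in the Cavendish library and 11.04 in the control library. Of 14 measured ones 12 were called higher in the Fe'i than in the control library (4.93% of all measured genes). sycp3 was at 0 in the Fe'i library. Other lists were high in these libraries too. For Cavendish over control 14 of 19 measured exocrine pancreas and 7 of 8 measured erythrocyte markers were called higher (5.66% of all measured genes). For Fe'i over control all 17 liver and 6 of the 8 erythrocyte markers were called higher (4.93% of all measured genes). Skeletal muscle markers summed lowest in the Fe'i library. The part of these tissues in the chaperone values was not tested.

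Of 11 measured genes with mitochondrial products 8 were highest in the control library, beside 4383 of all 14061 measured genes. For hspa9, dnajc19, dnajc28 and dnajc30b, which are among the 8, the control interval overlaps that of at least 1 banana library. hspd1 (chaperonin 60) and hspe1 (chaperonin 10) form the folding chamber of the mitochondrial matrix. hspd1 was at 42.7 ± 2.65 in the Fe'i library, 44.4 ± 2.3 in the Cavendish library and 57.2 ± 2.91 in the control library, and hspe1 at 206 ± 16.1 in the Fe'i library, 246 ± 15.1 in the Cavendish library and 287 ± 17.7 in the control library. Both were highest in the control library, with log2 ratios of -0.41 and -0.48 for Fe'i over control, below the threshold. hspe1 was lower in the Fe'i than in the Cavendish library as well, with intervals that do not overlap, while for hspd1 those intervals overlap. The ratio of hspe1 to hspd1 stayed at 4.82, 5.53 and 5.02 in the Fe'i, Cavendish and control libraries.

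Of these 11 genes, 9 had a log2 ratio below 0 for Fe'i over control and 8 for Cavendish over control. Their medians were -0.22 and -0.23, with no call in either comparison. The counts were at least as high under the deposited FPKM and both TPM scalings, but these also lower the ratios of other genes. In that order the median over all measured genes was then -0.09, -0.10 and -0.04 for Fe'i over control, and -0.08, -0.19 and -0.09 for Cavendish over control. On the scaled FPKM, 6812 of all 14061 measured genes had a ratio below 0 for Fe'i over control and 6729 for Cavendish over control. The medians over all measured genes were 0.01 and 0.02 on that scale. dnajc15, a J-domain protein of the import motor of the inner membrane, was at 9.84 ± 1.81 in the Fe'i library, 13.2 ± 1.72 in the Cavendish library and 17.04 ± 2.11 in the control library. Its Fe'i over control log2 ratio, -0.73, was the lowest of all 63 measured chaperone genes in that comparison. dnajc19, of the same import motor, was at 16.02, 14.2 and 18.8 scaled FPKM in the Fe'i, Cavendish and control libraries, and dnajc28, another mitochondrial product, at 8.81, 6.98 and 9.89. dnajc11a, linked to the complex that shapes the inner membrane, was at 17.2 ± 1.35 in the Fe'i library, 18.8 ± 1.12 in the Cavendish library and 21.6 ± 1.3 in the control library. The chaperone dnajc4 went the other way, at 3.97 ± 0.854 in the Fe'i library, 4.26 ± 0.757 in the Cavendish library and 2.44 ± 0.588 in the control library. By less, dnaja3a was also above the control library, at log2 ratios of 0.21 for Fe'i and 0.15 for Cavendish. The second of these was -0.10 on the TPM scale. dnaja3b was above the control library for Cavendish alone, at 0.28.

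J-domain proteins, the partners that give HSP70 its substrates, were measured in 38 of 46 cases. Of the 38, 27 (71.1%) stayed within 1.5-fold in all 3 comparisons, against 63.7% of all measured genes. In the DNAJA family, which has the full domain order of the bacterial founder of the group, dnaja2 was by far the most abundant, at 86.1 ± 4.48 in the Fe'i library, 72.5 ± 3.4 in the Cavendish library and 74.6 ± 3.66 in the control library. Its interval in the Fe'i library lies above the other two. dnaja2l was at 11.1 ± 1.34 in the Fe'i library, 11.48 ± 1.06 in the Cavendish library and 7.9 ± 0.944 in the control library, above the control in both banana libraries. dnaja1 was at 4.16 ± 1.62 in the Fe'i library, 6.88 ± 1.87 in the Cavendish library and 3.84 ± 1.13 in the control library, and its span overlaps that of smu1b over 2044 bases, so that reads of that stretch cannot be told apart without strand. dnaja3a and dnaja3b, the mitochondrial pair, were at 12.7 and 2.4 scaled FPKM in the Fe'i library, 12 and 4.23 in the Cavendish library and 10.8 and 3.32 in the control library.

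In the DNAJB family the classical partners of cytosolic HSP70 stood at modest levels. dnajb1b, a heat-inducible partner of HSP70, was at 8.43 ± 1.26 in the Fe'i library, 9.91 ± 1.12 in the Cavendish library and 11.7 ± 1.31 in the control library. Its value was thus highest in the control library, unlike those of the hsp70 genes. The Cavendish interval overlaps both others, and the Fe'i interval lies below that of the control library. dnajb6b, whose human relative blocks the clumping of polyglutamine proteins, was at 8.53 ± 1.33 in the Fe'i library, 15.1 ± 1.43 in the Cavendish library and 9.06 ± 1.17 in the control library. The Cavendish interval lies above both others, which overlap, with log2 ratios of 0.68 for Cavendish over control and -0.75 for Fe'i over Cavendish. Its paralog dnajb6a was at 12.7, 14.3 and 12.7 scaled FPKM in the Fe'i, Cavendish and control libraries. Among the membrane-bound members, dnajb12b was at 5.52 ± 1.24 in the Fe'i library, 2.38 ± 0.652 in the Cavendish library and 2.9 ± 0.755 in the control library. Its log2 ratio for Fe'i over Cavendish, 0.95, was the J-domain ratio of greatest size and lay just short of the threshold. dnajb1a and dnajb2, further partners of HSP70, were at 3.53 and 3.41 scaled FPKM in the Fe'i library, 3.8 and 3.96 in the Cavendish library and 3.34 and 2.26 in the control library. dnajb12a and dnajb14, also of the endoplasmic reticulum membrane, had log2 ratios between -0.26 and 0.21 in the 3 comparisons.

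The DNAJC family joins proteins that share little but the J domain. dnajc22, whose fly relative is needed for clathrin-mediated endocytosis, was the most abundant, at 52.99 ± 4.12 in the Fe'i library, 56.5 ± 3.7 in the Cavendish library and 65.1 ± 4.28 in the control library, highest in the control library. dnajc8, which takes part in splicing, was at 42.1 ± 4.53 in the Fe'i library, 31.7 ± 3.16 in the Cavendish library and 48.8 ± 4.36 in the control library, lowest in the Cavendish library with a log2 ratio of -0.61 to the control, the lowest of the 63 genes in that comparison. dnajc2, which assists folding at the ribosome, was at 10.03 ± 2.17 in the Fe'i library, 8.76 ± 1.62 in the Cavendish library and 13.1 ± 2.16 in the control library, with the Cavendish interval below that of the control library. Its span overlaps that of pmpcb over 4976 bases. dnajc5gb and dnajc5ab belong to the cysteine string proteins, known from secretory vesicles. dnajc5gb was at 30.4 ± 2.26 in the Fe'i library, 34.9 ± 2.16 in the Cavendish library and 36.9 ± 2.34 in the control library, close to equal between the Cavendish and control libraries. dnajc5ab was at 10.7 ± 1.07 in the Fe'i library, 6.92 ± 0.655 in the Cavendish library and 9.56 ± 0.813 in the control library, and so lower in the Cavendish library than in the other two.

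dnajc7, which can hold HSP70 and HSP90 at once, differed little, at 19.7 ± 1.65 in the Fe'i library, 18.3 ± 1.28 in the Cavendish library and 18.5 ± 1.82 in the control library. dnajc1, of the endoplasmic reticulum membrane, was at 29.9 ± 3.23 in the Fe'i library, 19.3 ± 1.82 in the Cavendish library and 22.9 ± 1.91 in the control library, with the Fe'i interval above both others. Over the 25 measured DNAJC genes the log2 ratios ran from -0.61 to 0.61 for Cavendish over control, from -0.73 to 0.53 for Fe'i over control and from -0.42 to 0.71 for Fe'i over Cavendish. Those not described singly are dnajc6, dnajc9, dnajc10, dnajc12, dnajc14, dnajc16l, dnajc17, dnajc18, dnajc21, dnajc24, dnajc25, dnajc30b and dnajc5ga, with levels from 0.311 scaled FPKM (dnajc6, Cavendish) to 14.9 (dnajc9, Cavendish). Of these dnajc6, the auxilin that strips clathrin from vesicles, had the ratio of greatest size, 0.71 for Fe'i over Cavendish at 1.14 and 0.311 scaled FPKM. The 8 J-domain genes that did not reach 1 FPKM were dnajb4, dnajb5, dnajb13, dnajc5aa, dnajc5b, dnajc11b, dnajc16 and dnajc27.

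**Figure D4:**
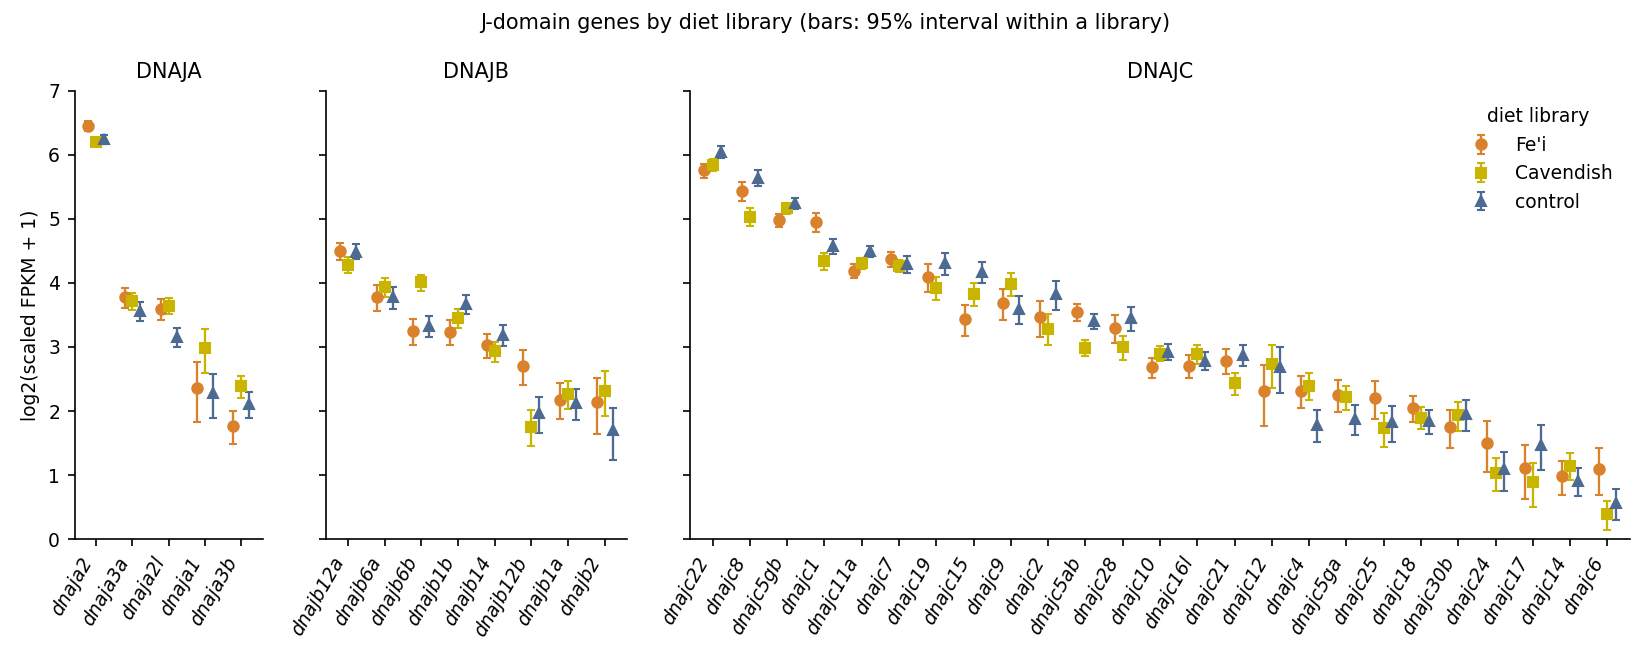
Levels of the 38 measured J-domain genes as log2(scaled FPKM + 1), ordered by mean level within each family, in the Fe'i (circles), Cavendish (squares) and control (triangles) libraries, with bars for the 95% interval within a library. Most of the 3 symbols of a gene lie close together, and dnaja2 and dnajc22 lead their families.

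The pathway beyond these names gave few calls as well. Of 37 measured cochaperones and other heat shock response genes, 2 were called higher and 2 lower for Fe'i over control (4.93% and 1.79% of all measured genes). None was called for Cavendish over control (5.66% higher and 1.65% lower among all measured genes) or for Fe'i over Cavendish (4.22% and 4.49%). The median log2 ratio of the list was -0.13 for Fe'i over control, -0.15 for Cavendish over control and -0.01 for Fe'i over Cavendish, and -0.27, -0.37 and 0.11 on the TPM scale. fkbp5, an HSP90-binding prolyl isomerase that glucocorticoids are known to induce, was at 52.5 ± 3.31 in the Fe'i library, 79.8 ± 4.1 in the Cavendish library and 120.0 ± 5.91 in the control library, and was called lower for Fe'i over control at a log2 ratio of -1.18. No 2 of its 3 intervals overlap. ahsa1a, an activator of the HSP90 ATPase, was at 0.996 ± 0.679 in the Fe'i library, 2.09 ± 0.86 in the Cavendish library and 5.07 ± 1.48 in the control library, also called lower for Fe'i over control. For Cavendish over control its log2 ratio, -0.98, was just short of the threshold, and it passed at -1.08 with the deposited FPKM and -1.19 on the TPM scale. Called higher for Fe'i over control were bag2, an HSP70 cofactor, at 4.79 ± 1.52 in the Fe'i library against 1.82 ± 0.794 in the control library, and dnaaf2, which helps assemble ciliary dynein, at 1.7 ± 0.578 in the Fe'i library against 0.246 ± 0.186 in the control library. The call of bag2, at a log2 ratio of 1.04, was lost with the deposited FPKM (0.94) and on the TPM scale (0.95). The autophagy receptor sqstm1 was at 54.6 ± 3.97 in the Fe'i library, 42.2 ± 2.79 in the Cavendish library and 67.9 ± 4.04 in the control library, and hsbp1a, which binds heat shock factor 1, at 10.7 ± 2.73 in the Fe'i library, 11.7 ± 2.3 in the Cavendish library and 6.77 ± 1.88 in the control library. hsc70 and trap1 are counted in this list because their symbols do not match the rule. hsc70 was at 1.61 ± 0.465 in the Fe'i library, 0.671 ± 0.238 in the Cavendish library and 0.435 ± 0.207 in the control library. Its log2 ratios were 0.86 for Fe'i over control and 0.64 for Fe'i over Cavendish, called at 1.5-fold but not at 2-fold.

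The TRiC chaperonin, which folds actin and tubulin, and prefoldin, which feeds it, differed little between diets. Of 15 measured identifiers 14 were within 1.5-fold in all comparisons, against 63.7% of all measured genes. None of the 15 was called in any comparison, against 14.5% of all measured genes. Yet all 15 had a log2 ratio below 0 for Fe'i over control, with a median of -0.23 and a range from -0.52 to -0.02. For Fe'i over Cavendish 14 of 15 were below 0, with a median of -0.18, though on the TPM scale 11 were. tcp1, its first subunit, was at 68.4 ± 4.29 in the Fe'i library, 86.5 ± 4.41 in the Cavendish library and 80.8 ± 4.39 in the control library. The prefoldin genes pfdn5 and pfdn6 had log2 ratios of -0.31 and -0.52 for Fe'i over control. The symbol cct2 belongs to 2 identifiers, 1 of which had the greatest difference of the list, at a level of 236 in the Fe'i library, 429 in the Cavendish library and 286 in the control library, while the other was at 131 in the Fe'i library, 151 in the Cavendish library and 147 in the control library.

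The endoplasmic reticulum chaperones set aside here took another order from hsp90aa1.2 and the hsp70 genes. hspa5, their HSP70, was at 301 ± 6.4 in the Fe'i library, 101 ± 2.91 in the Cavendish library and 210.2 ± 4.61 in the control library, highest in the Fe'i and lowest in the Cavendish library, and 7 of the 8 genes set aside were lowest in the Cavendish library. For Fe'i over Cavendish 4 of the 8 were called higher (hspa5, hsp90b1, dnajb9b and dnajc3a), beside 4.22% of all measured genes. hsp90aa1.2 was called lower in that comparison and the hsp70 genes had ratios below 0. The contrast does not hold for all the cytosolic genes. hspb2 and hspb15 were also highest in the Fe'i and lowest in the Cavendish library, though their Cavendish and control intervals overlap. dnajb1b was highest in the control library, with an interval that overlaps that of the Cavendish library.

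Some of these genes are neighbours in GRCz11. hspd1 and hspe1 lie on chromosome 9 with 233 bases between their spans, hsp90aa1.2 and hsp90aa1.1 on chromosome 20 with 690 bases between them, and hsp70.1, hsp70.2 and hsp70.3 within 14312 bases of chromosome 3. The hsp70.1, hsp70.2 and hsp70.3 spans all lie inside that of atp2a1, a calcium pump gene of skeletal muscle, which was at 0.0871 ± 0.659 in the Fe'i library, 0.266 ± 0.434 in the Cavendish library and 0.547 ± 0.528 in the control library. Of the 63 measured genes 18 overlap the span of another annotated gene, and hsp90aa1.2, hsp90aa1.1, hspb1, hspb2, hspb11 and hspb15 are not among them.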

How the data were processed

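The deposited files hold FPKM computed by the authors with Cufflinks, per the file headers, with a 95% interval and a status for each row; its bounds lie 2 SD either side of the value. The submitters' processing notes name FastQC 0.11.5, TopHat2 2.1.0 and the build GRCz11 for the paired reads of 150 bases. No Cufflinks version, annotation release or strand setting is stated in the labels or headers. Starts in the files count from 0 and are printed from 1.

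Rows were summed by identifier (32661 rows, 32519 identifiers), and 9 identifiers with a status other than OK were left out; none is a chaperone gene, and no chaperone gene has several rows. Scaling was by median ratios: for each library, the median over genes expressed (1 FPKM) in every library of the ratio to the gene's geometric mean (factors 0.965 for Fe'i, 0.969 for Cavendish and 1.06 for control). The squared ratio of FPKM to SD is the effective number of fragments; among genes under 20 it was whole within 0.05 for 44.4%, 44.2% and 44.5% in the Fe'i, Cavendish and control libraries, so no count test was run. The intervals cover counting and read assignment only, since PCR copies are not independent molecules. With 1 library per diet there is no test, and calls use fold and interval overlap over all measured genes. The call rule was run on simulated fragments with counting error only, at the control library's precision. That run holds no spread between fish, so it does not show how the calls would fare in replicates. Counts of list members were read against the share called among all measured genes. Alternatives changed the scaling, pseudocount, minimum FPKM, fold and row handling.

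Named genes are every called chaperone gene, every measured heat shock factor, HSP90, HSP70, HSP110, small heat shock protein and chaperonin gene, the 6 most abundant and the 6 with the greatest ratio at 5 FPKM or more in each DNAJ family, and called genes and up to 4 with the greatest ratio of each other list. Outside this rule hspbp1, hspbap1, dnajc19, dnajc4, unc45b, hsc70, trap1, acta2, atp2a1 and the single markers listed at 0 are named, chosen after their values were seen. DNAJ genes outside the rule are named to account for every gene. The genes and lists were chosen with earlier results of these data known. The gene name table used here gave the same symbol, ignoring case, for 66 of the 80 identifiers. Computations used Python 3.11.15, pandas 2.3.3 and numpy 2.4.6.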

Additional observations from a re-analysis of the deposited data

How the results depend on the processing

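No paired analysis was possible because each diet has 1 library, and none can be left out for the same reason. On the TPM scale the median over all measured genes was -0.10 for Fe'i over control, -0.19 for Cavendish over control and 0.09 for Fe'i over Cavendish (log2), and that of the chaperone genes was -0.13, -0.18 and 0.0663. The chaperone median was -0.12 for Fe'i over control with the deposited FPKM and -0.18 for Cavendish over control with a minimum of 5 FPKM. Counts of called chaperone genes moved with the pseudocount, the minimum and the fold. With a pseudocount of 5, 0 were higher for Cavendish over control (1.99% of all measured genes) and 0 for Fe'i over control (2.37%). For Fe'i over Cavendish 0 were higher (1.97%) and 1 was lower (hsp90aa1.2, 1.60% of all measured genes). With a pseudocount of 0.1, 5 were higher for Cavendish over control (9.00% of all measured genes) and 2 for Fe'i over control (6.59%). For Fe'i over Cavendish 4 were higher and 6 lower (5.55% and 7.12%). With that pseudocount hsp70.1 and hsp70.2 were called lower for Fe'i over Cavendish (log2 ratio -2.06 and -1.66). hsp70.2 was then also called higher for Cavendish over control (1.01). A minimum of 5 FPKM left 1 higher for Cavendish over control (6.05% of all measured genes) and 0 for Fe'i over control (5.92%). It left 0 higher and 2 lower for Fe'i over Cavendish (5.17% and 4.85%). A 1.5-fold threshold gave 9 higher and 1 lower for Cavendish over control (12.2% and 5.32% of all measured genes). It gave 4 and 2 for Fe'i over control (9.41% and 5.14%), and 5 and 11 for Fe'i over Cavendish (8.94% and 9.99%). Some alternatives could not remove a call: a 1.5-fold threshold, no minimum and a pseudocount of 0.1. Taking the highest row of each identifier could hardly do so, since no chaperone gene has several rows. Under the others, hsp90aa1.2 for Fe'i over Cavendish held throughout. The hspb1 call for Cavendish over control was lost under the deposited FPKM, both TPM scalings and a pseudocount of 5, and held with a minimum of 5 FPKM. Every other call held under the deposited FPKM and both TPM scalings and was lost with a pseudocount of 5. dnajb12b was called higher for Fe'i over Cavendish under both TPM scalings and a pseudocount of 0.1 (log2 ratio 1.04, 1.06 and 1.18). No called ratio of these genes changed sign. Among the cochaperones, 1 was called lower for Cavendish over control (ahsa1a) under the deposited FPKM, both TPM scalings and a pseudocount of 0.1. The shares over all measured genes were 2.29%, 3.21%, 2.57% and 2.51% in that order. With that pseudocount 2 were also called higher (bag2 and dnaaf2), against 9.00% of all measured genes. Depth limits hspb2, hspb9, hspb11 and hsp90aa1.1, whose lowest values rest on under 3 effective fragments.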
